A study of Caenorhabditis elegans with 40 samples.

Results

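Trehalose synthesis and breakdown were followed here through the transcripts of 8 genes of Caenorhabditis elegans, the trehalose phosphate synthases tps-1 and tps-2, the phosphatase gob-1 and the trehalases tre-1 to tre-5. The genes were chosen by name, and they are 8 of the 42048 features in the deposited tables. tre-5 was singled out in that choice because its difference between genotypes at 15 °C ran opposite to that at 20 °C, so the genotype values of old animals at these temperatures are given below as a description, without a test. RNA came from whole octr-1(ok371) mutants and whole wild-type N2 animals, all fed E. coli OP50. Mutants and wild type were each collected as old adults at 15 °C (adult day 24), 20 °C (adult day 14) and 25 °C (adult day 9), and as young adults at 20 °C. That gives 8 groups of 5 libraries. Temperature and day of adulthood cannot be told apart among the old animals. octr-1 encodes an octopamine receptor of neurons, and by its title the series asks how this receptor relates to temperature and aging.

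Trehalose is a glucose disaccharide that nematodes use as a sugar reserve and as a protectant, and it accumulates in C. elegans dauer larvae and under drying. Trehalose phosphate synthases join UDP-glucose to phosphorylated glucose, the phosphatase GOB-1 then removes the phosphate, and trehalases split the finished sugar back into glucose. Loss of gob-1 is known to obstruct the gut of larvae, whereas the separate roles of the 5 trehalases are less well known.

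In the annotation used here tps-1, gob-1 and tre-4 are on chromosome X, tps-2 and tre-5 on chromosome II, tre-1 on chromosome I, tre-2 on chromosome IV and tre-3 on chromosome V. Exons of tps-2 overlap arl-3 on the same strand, and exons of tre-4 overlap efn-3 on the other strand. How such reads were assigned is not given in the sources used here, so values of tps-2 and tre-4 may contain reads of their neighbours. All 8 genes passed the filter on low values in all 13 comparisons.

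The libraries held 27.9 to 41.0 M reads assigned to genes, and replicates differed by 1.72 to 17.3 times the counting noise (chi-square per gene), so none was taken for a duplicate. Levels in CPM are counts scaled to library totals that were adjusted by trimmed mean of M-values (TMM) over all libraries. octr-1 itself had 0.412 to 1.59 CPM in mutant libraries, against 1.37 to 6.69 CPM in wild-type libraries. It was lower in every mutant group than in its wild-type group without overlap. In 1 deposited table, that of old mutants at 25 and 20 °C, all 10 columns carried the group name of the other temperature when their reads were compared with 2 other tables, and the names were exchanged before testing. The signs of the authors' deposited log2 fold changes for the 8 genes equal those obtained after the exchange. Whether replicates were separate cultures is not stated in the labels, so the spread behind each p-value may be technical only. Because whole animals were sequenced, fewer cells of a type and less RNA per cell cannot be told apart.

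tre-1 and tre-2 made up most of the trehalase transcripts in every group, and tre-5 made up 2.03% to 9.52% of them in the means of the old groups and 0.332% to 0.408% in those of the young groups. On the TPM scale, which corrects counts for gene length, tre-1 averaged 73.4 ± 3.1 to 118 ± 3.4 TPM over the 8 groups (SD, n = 5 each). tre-2 averaged 31.3 to 51.1 TPM, tre-3 11.6 to 18.8 TPM and tre-4 3.43 to 5.33 TPM. tre-5 averaged 3.86 to 16.3 TPM in the old groups, against 0.546 ± 0.17 TPM in young mutants and 0.664 ± 0.12 TPM in young wild type. Of the synthases, tps-1 averaged 17.7 to 26.9 TPM in old animals and 5.30 to 5.50 TPM in young ones, whereas tps-2 stayed between 9.34 and 17.0 TPM over all groups. gob-1 averaged 20.9 to 27.8 TPM.

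**Figure D1:**
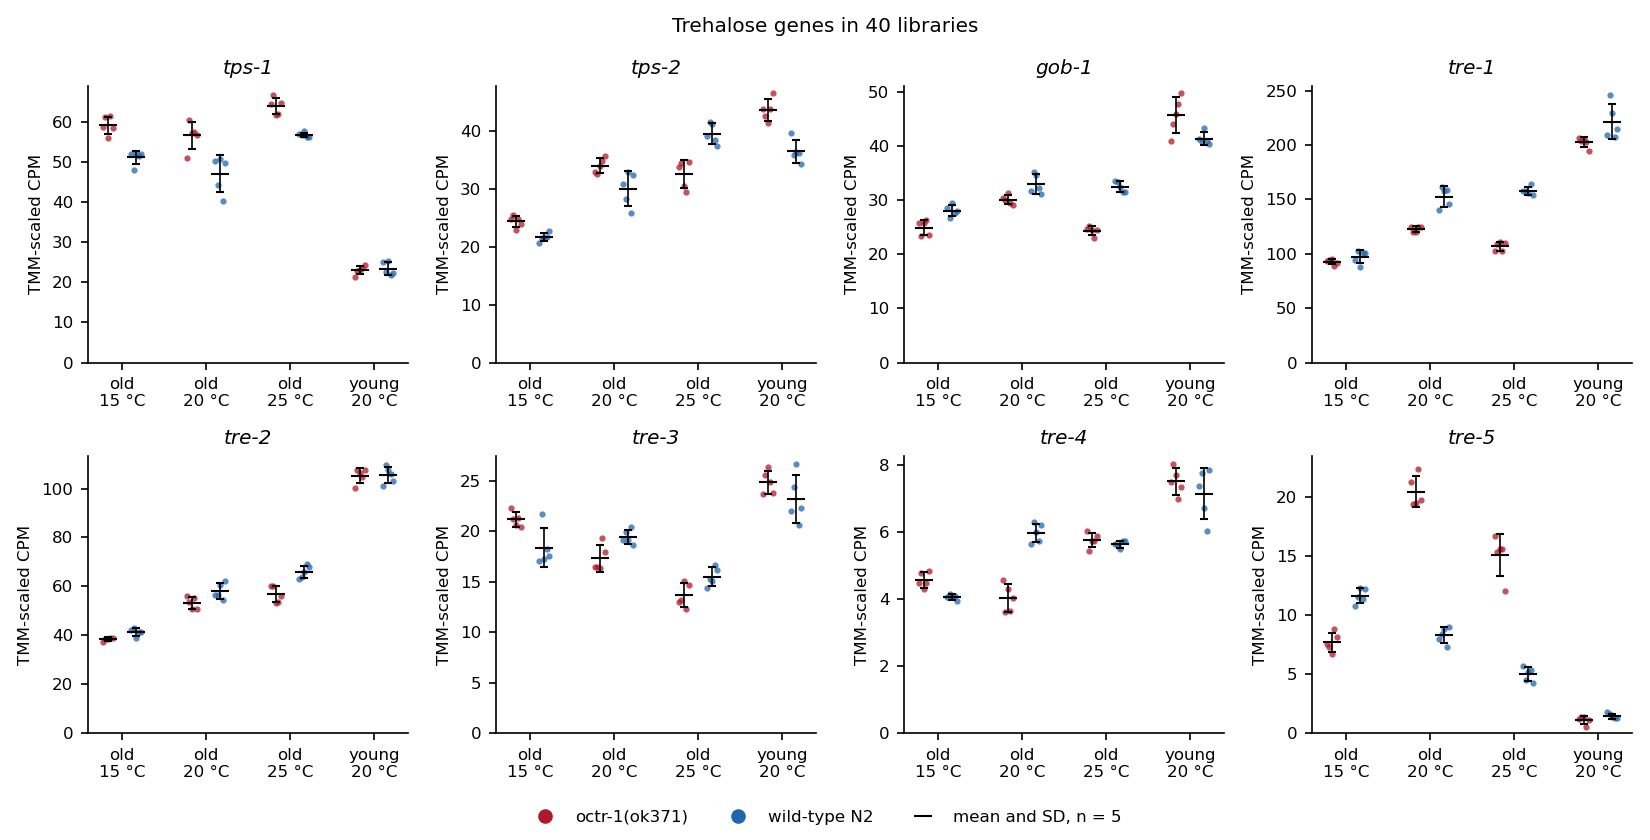
Levels of the 8 genes in each library, in CPM scaled by trimmed mean of M-values (TMM) over all 40 libraries. Each dot is a library, and lines show the mean and SD of 5 replicates for octr-1(ok371) mutants (red) and wild type (blue). tre-5 was highest in old mutants at 20 °C and lowest in young animals, and tps-1 was higher in all old groups than in young ones.

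Over the 8 groups tre-5 varied far more than the other 7 genes. The ratio of the highest to the lowest group mean was 18.3 for tre-5 in CPM, a span exceeded by 7.83% of the 12752 genes ranked, whereas the other members spanned 1.82 (tre-3) to 2.77 (tps-1) beside a median of 2.53 over all genes. For tre-5 the highest mean was that of old mutants at 20 °C, a group that entered its choice. Its span and rank are therefore a description and no support for that choice. In old mutants tre-5 had 7.49, 7.30, 6.69, 8.84 and 8.10 CPM at 15 °C, then 21.2, 19.4, 19.4, 22.3 and 19.7 CPM at 20 °C, and 16.6, 15.3, 15.6, 15.6 and 12.02 CPM at 25 °C. In old wild type it had 10.8, 11.5, 12.3, 11.3 and 12.2 CPM at 15 °C, then 7.99, 8.40, 8.80, 7.26 and 8.95 CPM at 20 °C, and 5.68, 4.47, 5.12, 5.32 and 4.24 CPM at 25 °C. Wild type thus had less tre-5 at each higher temperature, while mutants had the most at 20 °C. Young mutants had 1.16, 1.39, 1.36, 0.532 and 1.13 CPM of tre-5, and young wild type had 1.74, 1.57, 1.32, 1.26 and 1.25 CPM. These young values rest on 16 to 34 reads per mutant library and 25 to 44 reads per wild-type library, so their counting error is large. In order of level the young groups overlapped each other, old mutants at 15 °C overlapped old wild type at 20 °C, and old mutants at 25 °C overlapped old wild type at 15 °C, while all other neighbours in the order were apart.

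At 25 °C old octr-1 mutants differed from old wild type in 7 of the 8 genes, with tre-5 and tps-1 higher and tps-2, gob-1, tre-1, tre-2 and tre-3 lower. At this condition 76.5% of the 15964 features tested were called at an adjusted p under 0.05 (limma-trend with Benjamini-Hochberg adjustment), so the count of called members is near the background. The median log2 fold change was -0.20 over the 8 genes and -0.01 over all features. Genotypes did not overlap for 62.8% of features. The synthases moved in opposite directions. tps-1 had 64.5, 66.7, 61.7, 62.1 and 64.6 CPM in mutants, against 56.9, 56.9, 57.6, 56.3 and 56.2 CPM in wild type. It was 1.13-fold higher in mutants with no overlap (log2 fold change 0.17 ± 0.03 SE, limma-trend adjusted p = 5.3e-05). tps-2 had 33.7, 34.4, 30.5, 29.4 and 34.5 CPM in mutants, against 39.1, 41.6, 41.1, 38.4 and 37.3 CPM in wild type. Every mutant library was below every wild-type library, a 1.22-fold difference (limma-trend adjusted p = 1.0e-05). The call on tps-2 was lost with library size as the only scaling, where its log2 fold change was -0.07. gob-1, whose product finishes trehalose synthesis, had 24.7, 25.3, 24.5, 23.1 and 24.5 CPM in mutants, against 33.7, 33.4, 32.4, 31.6 and 31.5 CPM in wild type. It was 1.33-fold lower in mutants, again without overlap (limma-trend adjusted p = 1.6e-09).

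Among the trehalases at 25 °C, tre-5 showed the largest difference, and the others fell or did not pass. tre-5 was 3.02-fold higher in mutants than in wild type (log2 fold change 1.59 ± 0.08 SE, limma-trend adjusted p = 1.1e-13), and 7.70% of all features had a larger absolute change. tre-1, the most abundant trehalase transcript, had 103, 109, 111, 103 and 109.7 CPM in mutants, against 158, 158, 156, 164 and 154 CPM in wild type. Mutant and wild-type libraries were far apart, with tre-1 1.47-fold lower in mutants (log2 fold change -0.56 ± 0.03 SE, limma-trend adjusted p = 1.1e-13). tre-2 was 1.16-fold lower without overlap (limma-trend adjusted p = 4.4e-05) and tre-3 1.14-fold lower with overlap (limma-trend adjusted p = 0.0069), but with library size as the only scaling tre-2 was at -0.01 and no longer called and tre-3 was at 0.02 on the log2 scale. tre-4 had a log2 fold change of 0.03 with an interval of -0.09 to 0.16, and its adjusted p was 0.65 by limma-trend. With library size as the only scaling tre-4 was called higher, at 0.24 on the log2 scale.

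**Figure D2:**
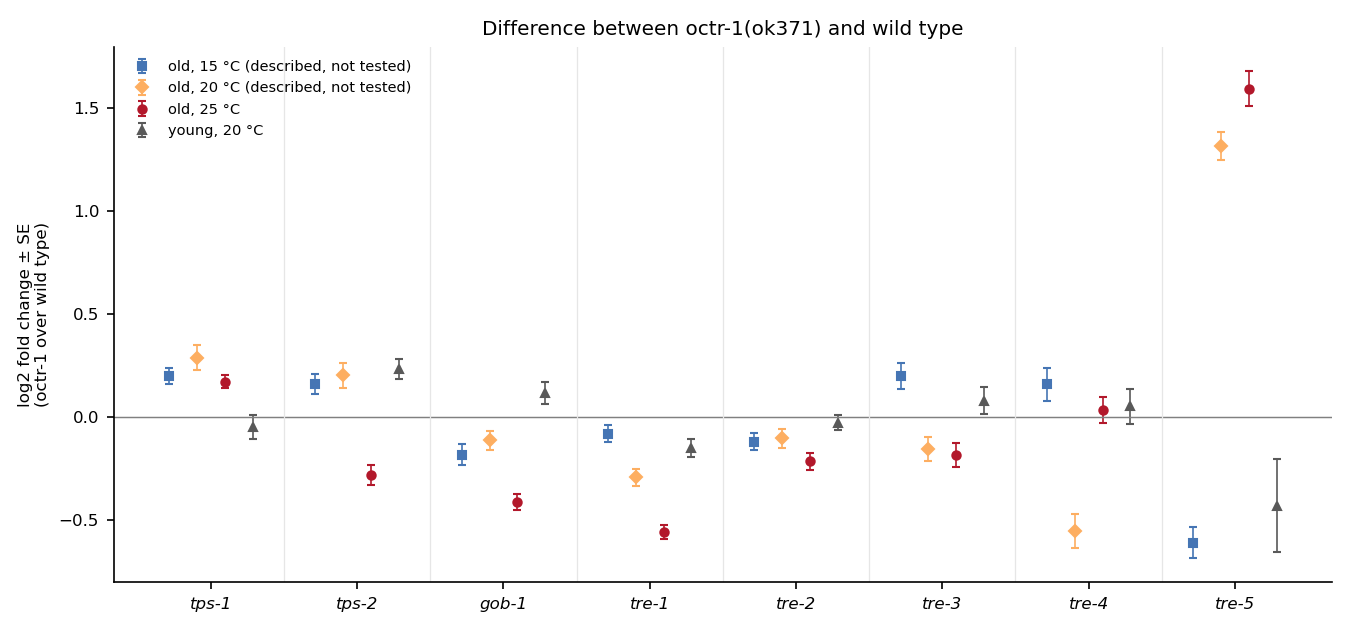
Log2 fold changes between octr-1(ok371) mutants and wild type for each gene, with standard errors from the fit across all features of each table. tre-5 was at 1.59 at 25 °C and 1.32 at 20 °C in old animals, against -0.61 at 15 °C, and the other 7 genes stayed between -0.56 and 0.29.

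In young adults at 20 °C the genotypes differed in tps-2 and tre-1 only, among these 8 genes, while 43.6% of the 13122 features tested were called. The median log2 fold change was 0.01 over the 8 genes, close to that over all features. Genotypes did not overlap for 27.1% of features. tps-2 had 43.8, 42.6, 41.3, 43.7 and 46.4 CPM in mutants, against 39.6, 35.8, 36.3, 36.1 and 34.2 CPM in wild type. Mutants were 1.18-fold higher without overlap (log2 fold change 0.23 ± 0.05 SE, limma-trend adjusted p = 0.0012), the reverse of the direction at 25 °C. tre-1 had 206, 203, 206, 203 and 195 CPM in young mutants, against 209, 247, 229.9, 208 and 215 CPM in young wild type. It was 1.11-fold lower in mutants by a narrow gap (limma-trend adjusted p = 0.010), and was no longer called with library size as the only scaling, where it was at -0.05 on the log2 scale. gob-1 was at 0.12 on the log2 scale (limma-trend adjusted p = 0.076), and passed at 0.15 with edgeR, at 0.13 with DESeq2, at 0.22 with library size as the only scaling and at 0.15 without young mutant replicate 1. tre-5 was at -0.43 with an interval of -0.88 to 0.02 (limma-trend adjusted p = 0.13), and at -0.19 without young mutant replicate 4, its lowest library. tps-1, tre-2, tre-3 and tre-4 had log2 fold changes of -0.05 to 0.08, with limma-trend adjusted p-values of 0.36 to 0.66.

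The genotype difference at 25 °C in old animals departed from that in young animals at 20 °C for 7 of the 8 genes by the interaction term of edgeR's quasi-likelihood test, which called 47.6% of 16287 features. Age and temperature both differ between these conditions and cannot be told apart in it. For the synthases the change in genotype effect was 0.23 ± 0.06 for tps-1 (edgeR adjusted p = 0.0026) and -0.50 ± 0.07 for tps-2 (edgeR adjusted p = 3.9e-07), in log2 units with SE. gob-1 was at -0.52 (edgeR adjusted p = 4.7e-08) and tre-1 at -0.39 (edgeR adjusted p = 2.5e-07). tre-5 had the largest departure among the members, 2.04 ± 0.23 (edgeR adjusted p = 1.7e-08), which is a 4.10-fold larger mutant-to-wild-type ratio in old animals at 25 °C. This departure was 1.83 to 2.14 with any 1 library left out, and its young side rests on 16 to 44 reads per library. tre-2 at -0.18 (edgeR adjusted p = 0.0093) and tre-3 at -0.25 (edgeR adjusted p = 0.024) each lost the call when any of several single libraries was left out. Without one library tre-2 lost it for wild type at 25 °C replicates 4 and 5 and mutants at 25 °C replicates 3 and 4, down to -0.12. tre-3 lost it for young wild type replicate 4, wild type at 25 °C replicates 2, 4 and 5 and mutants at 25 °C replicates 1, 2 and 4, down to -0.18. Leaving out any library at 25 °C also moved the median of all features, from -0.03 to between -0.011 and 0.00059. Without a mutant library at 25 °C, 15934 to 15949 features passed the filter instead of 16287. Lost calls from these shifts and from single libraries at 25 °C cannot be told apart. tre-4 was at 0.01 with an interval of -0.20 to 0.21.

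The genotype values of old animals at 15 and 20 °C, which the choice of genes had in view, were as follows. At 15 °C tre-5 was 1.53-fold lower in mutants, without overlap between groups, and at 20 °C it was 2.49-fold higher, again without overlap. Under the alternatives that leave out 1 library the log2 fold change of tre-5 was -0.66 to -0.56 at 15 °C and 1.27 to 1.35 at 20 °C. These ranges describe the spread of the values that singled out tre-5 and are no support for that pattern. Both synthases were higher in mutants at both temperatures, tps-1 with log2 fold changes of 0.20 at 15 °C and 0.29 at 20 °C and tps-2 with 0.16 and 0.20. Neither synthase overlapped between genotypes in the deposited normalized counts at these temperatures. Genotypes did not overlap for 35.2% of all features at 15 °C and 32.8% at 20 °C. For tps-2 the gaps were narrow, with lowest mutant and highest wild-type values of 768 and 766 at 15 °C and 1160 and 1157 at 20 °C. gob-1 was at -0.18 at 15 °C and -0.11 at 20 °C. tre-1 was at -0.08 at 15 °C and -0.29 at 20 °C, and tre-2 at -0.12 and -0.10. tre-3 was at 0.20 at 15 °C and -0.15 at 20 °C, with overlap at both temperatures. tre-4 had 4.47, 4.76, 4.30, 4.46 and 4.85 CPM in mutants at 15 °C, against 4.06, 4.16, 4.07, 4.08 and 3.93 CPM in wild type. At 20 °C it had 4.55, 3.62, 4.31, 3.64 and 4.03 CPM in mutants, against 5.65, 6.29, 5.99, 5.74 and 6.20 CPM in wild type. The tre-4 libraries of the genotypes did not overlap at either temperature. The difference at 15 °C was small, with a log2 fold change of 0.16, whereas that at 20 °C was -0.55.

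Across temperatures in old wild type, the trehalase transcripts tre-1, tre-2 and tre-4 and both gob-1 and tps-2 were lower at 15 °C than at the warmer temperatures, and tre-5 was higher. Between 15 and 20 °C, 5 of the 7 genes other than tre-5 were called in wild type, where 63.9% of features were. Between 15 and 25 °C all 7 were, where 79.0% of features were. tps-2 had 20.7, 21.5, 21.5, 21.6 and 22.7 CPM in wild type at 15 °C, which lay below all wild-type libraries at 20 °C (25.7 to 32.8 CPM) and at 25 °C (37.3 to 41.6 CPM). It was 1.38-fold lower at 15 °C than at 20 °C (limma-trend adjusted p = 3.7e-06) and 1.83-fold lower than at 25 °C (limma-trend adjusted p = 7.8e-14). tps-1 was at 0.12 between 15 and 20 °C (limma-trend adjusted p = 0.081), and was 1.12-fold lower at 15 °C than at 25 °C (limma-trend adjusted p = 0.00026). The first of these passed with library size as the only scaling (0.18) and without wild type at 20 °C replicate 3 (0.15). gob-1 was 1.18-fold lower at 15 °C than at 20 °C and 1.16-fold lower than at 25 °C. tre-1 had 88.3 to 102.9 CPM in the 5 wild-type libraries at 15 °C, against 140 to 161 CPM at 20 °C, with no overlap. It was 1.57-fold lower at 15 °C than at 20 °C and 1.63-fold lower than at 25 °C. tre-2 was 1.40-fold and 1.60-fold lower by the same contrasts, and tre-4 1.47-fold and 1.39-fold lower, all without overlap. Over all features 49.1% did not overlap between 15 and 20 °C and 67.4% between 15 and 25 °C. tre-3 was at -0.09 between 15 and 20 °C (limma-trend adjusted p = 0.25), called at -0.15 without wild type at 15 °C replicate 2, and was 1.17-fold higher at 15 °C than at 25 °C (limma-trend adjusted p = 0.0027).

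tre-5 in old wild type was 1.40-fold higher at 15 °C than at 20 °C (log2 fold change 0.49 ± 0.07 SE), without overlap. This value is a description without a test, since it rests on the libraries whose genotype differences singled out tre-5. tre-5 was 2.33-fold higher at 15 °C than at 25 °C (1.22 ± 0.08 SE). Its contrasts between temperatures and with age all use some of those libraries, so they are given without p-values. Calls reported for these contrasts leave out tre-5. Between 25 and 20 °C tps-1, tps-2, tre-2 and tre-3 were called in wild type by edgeR, where 63.4% of 15410 features were. There tre-5 was 1.70-fold lower at 25 °C and tre-3 1.27-fold lower (edgeR adjusted p = 9.2e-06 for tre-3). tps-1, tps-2 and tre-2 were 1.19-fold, 1.29-fold and 1.12-fold higher. tre-1, tre-4 and gob-1 had log2 fold changes of 0.02, -0.11 and -0.05, with edgeR adjusted p-values of 0.16 to 0.59. The contrasts between temperatures share libraries with each other and with the genotype contrasts above, so they are not independent of each other.

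In old octr-1 mutants tps-2, tre-1 and tre-2 were also lower at 15 °C than at 20 °C, whereas tre-5 ran the other way from wild type. Of the 7 genes other than tre-5, 5 were called between 15 and 20 °C, where 66.5% of features were. All of these 7 except gob-1 were called between 15 and 25 °C, where 78.9% of features were. All except tps-2 and tre-2 were called between 25 and 20 °C, where 74.6% of features were. tps-2 was 1.42-fold lower at 15 °C than at 20 °C (limma-trend adjusted p = 3.8e-09) and 1.36-fold lower than at 25 °C (limma-trend adjusted p = 1.2e-07). tps-1 differed by 0.04 on the log2 scale between 15 and 20 °C (interval -0.05 to 0.13) and was 1.10-fold lower at 15 °C than at 25 °C (limma-trend adjusted p = 0.0032). gob-1 was 1.23-fold lower at 15 °C than at 20 °C and 1.25-fold lower at 25 °C than at 20 °C, so that in mutants it was highest at 20 °C. Between 15 and 25 °C gob-1 was at 0.01 on the log2 scale (limma-trend adjusted p = 0.92). tre-1 was also highest at 20 °C in mutants, 1.35-fold lower at 15 °C and 1.16-fold lower at 25 °C than at 20 °C, the last call being lost with library size as the only scaling. Unlike gob-1, tre-1 was called lower at 15 °C than at 25 °C (-0.23, limma-trend adjusted p = 5.6e-06). tre-2 was 1.41-fold lower at 15 °C than at 20 °C. tre-3 was 1.21-fold higher at 15 °C than at 20 °C and 1.53-fold higher than at 25 °C. tre-4 was 1.41-fold higher at 25 °C than at 20 °C (limma-trend adjusted p = 3.2e-06), and at 0.16 between 15 and 20 °C (limma-trend adjusted p = 0.10), a value called at 0.21 without mutants at 20 °C replicate 1. tre-5 was 2.70-fold lower at 15 °C than at 20 °C (log2 fold change -1.43 ± 0.07 SE, without overlap), again given without a test. It was 1.99-fold lower at 15 °C than at 25 °C and 1.38-fold lower at 25 °C than at 20 °C, both also without a test. The difference between genotypes in the step from 15 to 20 °C is the pattern that singled out tre-5, and it was not tested.

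**Figure D3:**
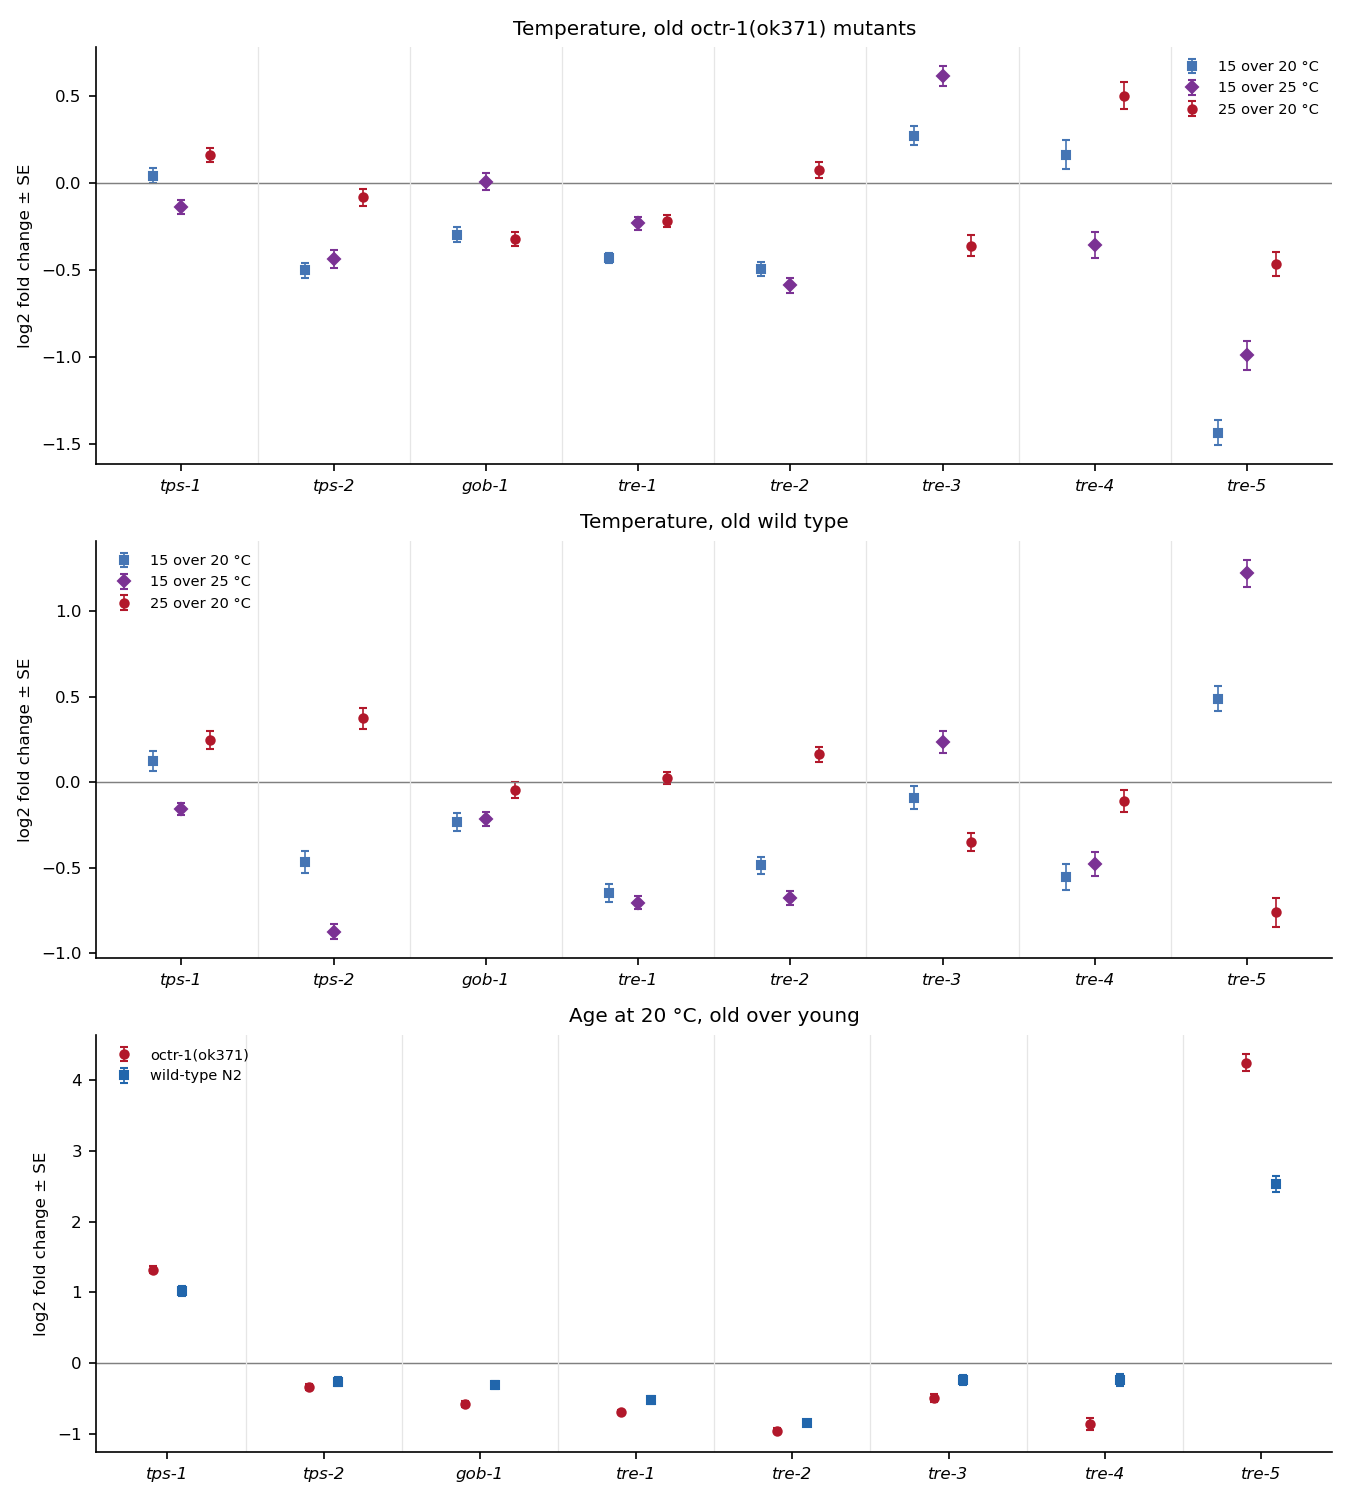
Log2 fold changes with standard errors between temperatures in old mutants (top) and old wild type (middle), and between old and young animals at 20 °C (bottom). tre-5 was at -1.43 in mutants and 0.49 in wild type for 15 over 20 °C, and tps-1 and tre-5 were the genes above 0 in the age comparison on the scaling shown.

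With age at 20 °C, tps-1 and tre-5 rose in both genotypes and the other 6 genes fell relative to the bulk of the transcriptome. Every gene other than tre-5 was called in mutants and in wild type by edgeR. So were 85.3% of the 15508 features tested in mutants and 85.1% of the 14770 tested in wild type. The median log2 fold change of the 8 genes was -0.53 in mutants and -0.25 in wild type, beside 0.07 and 0.09 over all features. Old and young libraries did not overlap for 75.2% of features in each genotype. tps-1 had 51.1, 60.4, 57.4, 57.6 and 56.6 CPM in old mutants, against 21.4, 22.9, 23.1, 23.6 and 24.2 CPM in young mutants. It was 2.50-fold higher in old mutants (log2 fold change 1.32 ± 0.05 SE, edgeR adjusted p = 9.7e-17) and 2.03-fold higher in old wild type (1.02 ± 0.07, edgeR adjusted p = 2.5e-11), with every old library above every young one. tre-5 was 19.02-fold higher in old mutants (4.25 ± 0.12) and 5.80-fold higher in old wild type (2.54 ± 0.11), against young levels that rest on few reads. These tre-5 values are given without p-values, since the old libraries at 20 °C entered its choice.

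The genes that fell with age did so by less. tre-2 was 1.94-fold lower in old mutants (edgeR adjusted p = 4.4e-16) and 1.80-fold lower in old wild type (edgeR adjusted p = 5.9e-13). tre-1 was 1.62-fold lower in mutants and 1.43-fold lower in wild type, and gob-1 1.49-fold lower in mutants and 1.24-fold lower in wild type. tps-2 was 1.26-fold lower in mutants (edgeR adjusted p = 3.6e-07) and fell by 0.26 on the log2 scale in wild type (edgeR adjusted p = 0.0012). The wild-type value was -0.14 without old replicate 4 and -0.17 without old replicate 2, still called in both cases. tre-3 was 1.40-fold lower in mutants and 1.18-fold lower in wild type, and tre-4 1.82-fold lower in mutants and 1.18-fold lower in wild type. In wild type the call on tre-4 was lost without any 1 of the 5 old libraries (-0.19 to -0.16), and that on tre-3 without old replicate 1, 3 or 5 (-0.16 to -0.15). Without an old library 13305 to 13316 features passed the filter instead of 14770, and their median was 0.04 instead of 0.09. Lost calls from this change and from single libraries cannot be told apart. The falls with age are relative to TMM scaling. With library size as the only scaling the median of all features moved to 0.61 in mutants and 0.67 in wild type, tps-2 and tre-3 were then above 0 in both genotypes, and tre-1, tre-4 and gob-1 were above 0 in wild type, all of them still below that median. tps-1 and tre-5 stayed higher and tre-2 stayed lower in old animals of both genotypes under every alternative run.

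Ratios between these genes within a library do not depend on how libraries are scaled to each other, and they are given here in TPM as a description. The tps-1 to tps-2 ratio lay between 1.21 and 2.22 in old animals, against 0.431 to 0.492 in young mutants and 0.535 to 0.612 in young wild type. tps-1 was thus the more abundant synthase transcript in all old libraries and tps-2 in all young ones. Among old animals the ratio was highest at 15 °C, at 2.14 ± 0.040 in mutants and 2.09 ± 0.099 in wild type (SD, n = 5 each). At 20 °C it was 1.47 ± 0.11 in mutants and 1.39 ± 0.030 in wild type. At 25 °C it was 1.74 ± 0.084 in mutants and 1.27 ± 0.048 in wild type, with no overlap there. gob-1 over the summed synthases was lower in mutants than in wild type in all 3 old conditions without overlap, for example 0.527 to 0.569 in mutants and 0.695 to 0.742 in wild type at 25 °C. In young animals this ratio was 1.41 ± 0.075 in mutants and 1.43 ± 0.065 in wild type, so the phosphatase transcript exceeded the summed synthases in young libraries and was below them in most old ones.

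The balance of trehalase to synthase transcripts was lower in old animals than in young ones. The 5 trehalases summed to group means of 3.85 to 6.12 times the synthases in old animals, against 9.50 ± 0.48 times in young mutants and 11.2 ± 0.94 times in young wild type. In old animals the ratio was lower in mutants than in wild type at each temperature, at 3.85 and 4.63 at 15 °C, 4.63 and 6.12 at 20 °C and 3.97 and 4.95 at 25 °C, without overlap at any of them. The summed trehalase TPM itself spanned 134 to 190.2 TPM over the group means, in proportion a narrower range than the 0.546 to 16.3 TPM of tre-5 alone. tre-5 supplied 4.73 ± 0.53% of it in old mutants and 6.84 ± 0.57% in old wild type at 15 °C, 9.52 ± 0.36% in old mutants and 3.46 ± 0.28% in old wild type at 20 °C, and 7.72 ± 0.93% in old mutants and 2.03 ± 0.24% in old wild type at 25 °C. In young animals tre-5 supplied 0.332 ± 0.10% in mutants and 0.408 ± 0.067% in wild type. tre-1 supplied 52.8% to 62.0% of the sum in each group mean and tre-2 23.4% to 31.1%. tre-3 reached its largest share at 15 °C, at 14.1 ± 0.49% in mutants and 11.6 ± 0.81% in wild type.

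**Figure D4:**
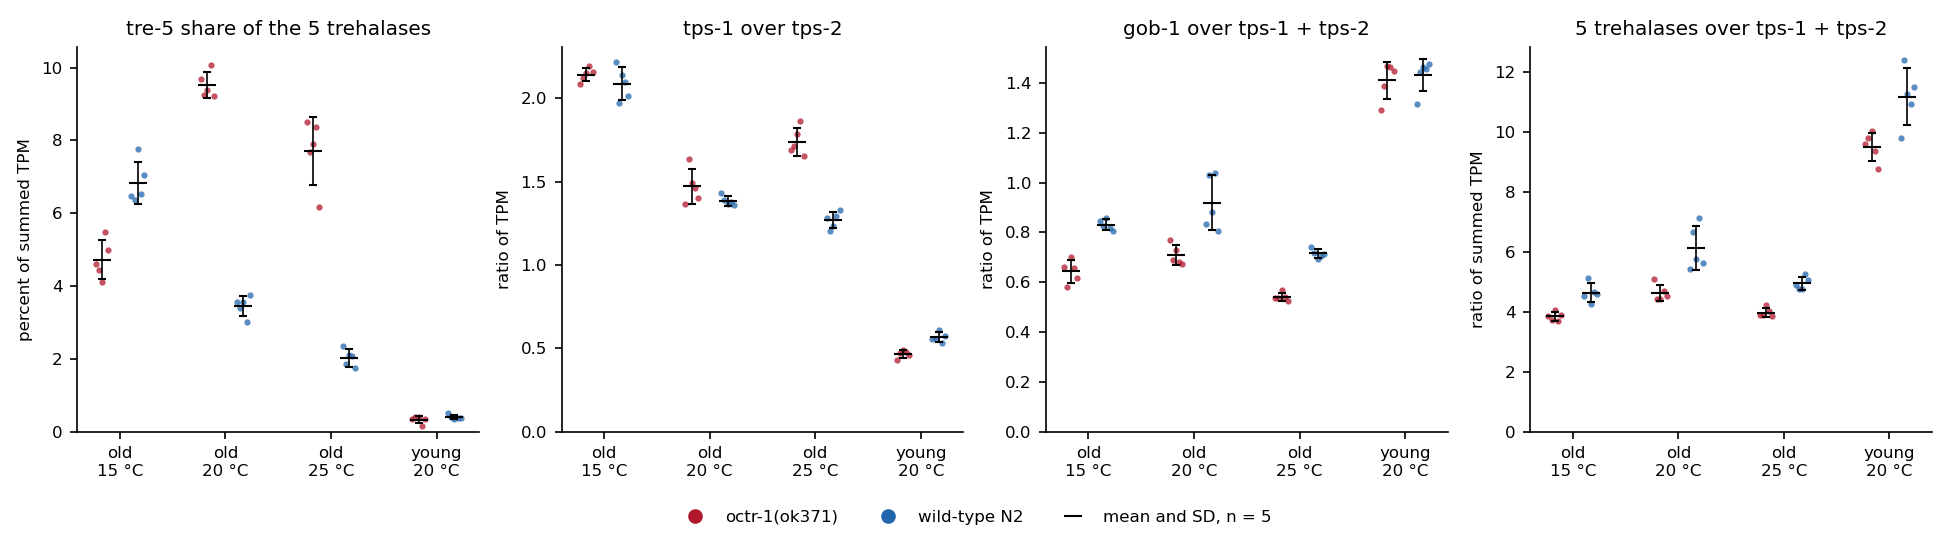
Ratios within each library on the TPM scale, with dots for libraries and lines for the mean and SD of 5 replicates. The tre-5 share was largest in old mutants at 20 °C (9.52%), the tps-1 to tps-2 ratio was below 1 in young animals only, and both other ratios were highest in young animals.

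Genes that feed or share this pathway were counted by lists chosen by function, and the genes named from a list are those with its smallest p-values. With age, 40.2% of all features were called lower and 45.1% higher in mutants, and 39.2% lower and 45.9% higher in wild type. For genotype at 25 °C 39.7% were called lower and 36.8% higher, and in young animals 24.0% lower and 19.6% higher. Of 7 genes for hexose phosphate and UDP-glucose supply, 7 fell with age in mutants and 7 in wild type (edgeR), among them K08E3.5 (-1.28 in mutants and -1.29 in wild type) and gpi-1, glucose phosphate isomerase (-1.21 in mutants). At 25 °C all 7 were lower in old mutants than in old wild type (limma-trend), by -0.10 to -0.38 on the log2 scale, with R05F9.6 at -0.38 and Y43F4B.5 at -0.33. In young animals 4 of the 7 were lower in mutants, with Y43F4B.5 at -0.25 and the hexokinase hxk-1 at -0.27. In old wild type 6 of the 7 were lower at 15 °C than at 25 °C, where 40.8% of all features were, with R05F9.6 at -0.81 and hxk-2 at -0.74. The median log2 fold changes of this list were -0.73 with age in mutants, -0.90 with age in wild type, -0.30 for genotype at 25 °C and -0.12 for genotype in young animals, beside all-feature medians of 0.07, 0.09, -0.01 and -0.01.

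Glycogen is the other glucose store of the worm, and its genes were counted next. Of 6 glycogen genes, 5 were lower and 1 higher in old mutants than in old wild type at 25 °C, among them the glycogen phosphorylase pygl-1 (-0.97, limma-trend adjusted p = 1.5e-18) and the glycogen synthase gsy-1 (-0.70). With age 5 fell and 1 rose in each genotype, with gsy-1 at -1.46 in mutants and -1.59 in wild type. In young animals 4 of the 6 were lower in mutants and none was called higher. Of 5 genes of the glyoxylate cycle and gluconeogenesis, which make sugar from fat, 4 were lower and 1 higher in mutants at 25 °C, among them the phosphoenolpyruvate carboxykinases pck-1 (-1.81, limma-trend adjusted p = 2.6e-17) and pck-2 (-0.53). Between young mutants and young wild type the smallest limma-trend adjusted p in this list was 0.15, of pck-1, which was at 0.16. Of 5 genes for glycerol synthesis and drying, 3 rose and 1 fell with age in each genotype, among them lea-1, which encodes a late embryogenesis abundant protein (1.44 in mutants and 1.13 in wild type). At 25 °C 2 of these 5 were higher and 3 lower in mutants, with lea-1 at -0.38 and the glycerol phosphate dehydrogenase gpdh-1 at -0.98. Of 3 sugar transporters, 2 rose and 1 fell with age in each genotype, among them swt-1 (3.40 in mutants and 2.80 in wild type). Of 6 genes of the insulin pathway, 5 were lower in mutants at 25 °C, among them the phosphatase daf-18 (-0.61) and the kinase age-1 (-0.29), and in young animals 1 was higher and 2 lower in mutants.

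For 4 of these lists the genotype median had another sign in old animals at 15 °C than at 25 °C, given as a description without a test. Supply genes had a median log2 fold change of 0.08 at 15 °C, -0.01 at 20 °C and -0.30 at 25 °C, and glycogen genes 0.09, -0.05 and -0.46 at the same temperatures. The glyoxylate and gluconeogenesis list was at 0.18, 0.13 and -0.53, and the insulin list at 0.20, 0.10 and -0.26. The glycerol and drying list was at -0.0040, 0.24 and -0.28 and the sugar transport list at 0.26, 0.50 and 0.53. All-feature medians were -0.01 at each of these temperatures.

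Tissue markers moved with the contrasts in which the 8 genes were compared. At 25 °C 7 of 8 intestine, 4 of 5 epidermis, 4 of 5 body muscle, 5 of 7 germline and 7 of 7 oocyte and early embryo markers were lower in old mutants than in old wild type, while 5 of 5 sperm, 3 of 3 pharynx muscle and 5 of 7 neuron markers were higher. Summed intestine markers were 249 to 277 CPM in mutants, against 499 to 523 CPM in wild type, and summed epidermis markers were 11.3 to 14.8 CPM in mutants, against 66.6 to 70.2 CPM in wild type. In young animals 7 of 7 oocyte and early embryo and 6 of 7 germline markers were lower in mutants, and the 4 sperm markers tested were higher. Summed sperm markers were 7.13 to 15.2 CPM in young mutants, against 2.60 to 6.81 CPM in young wild type. Of 8 intestine markers, 3 were higher and 2 lower in young mutants.

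Between 15 and 20 °C all 8 intestine markers were lower at 15 °C in old mutants, with a median log2 fold change of -1.65, and in old wild type, at -1.06. Over all features 34.8% were called lower and 31.7% higher in mutants in this contrast, and 33.4% lower and 30.5% higher in wild type. Summed intestine markers were 141 to 220.4 CPM in old mutants and 199 to 236 CPM in old wild type at 15 °C, and 493 to 559.5 CPM in old mutants and 462 to 519.97 CPM in old wild type at 20 °C. Oocyte and early embryo markers were lower at 15 °C for 6 of 7 in mutants and 7 of 7 in wild type, and 6 of 7 neuron markers were higher in each. Between 15 and 25 °C 7 of 8 intestine markers were lower and 1 higher in mutants, and 8 of 8 were lower in wild type. Over all features 40.4% were called lower and 38.6% higher in mutants there, and 40.8% lower and 38.2% higher in wild type. Between 25 and 20 °C in mutants 5 of 8 intestine markers were lower and 1 higher. There 6 of 7 oocyte and early embryo markers were lower, and 3 of 3 pharynx muscle and 4 of 5 sperm markers higher. In wild type 5 of 8 intestine markers were higher and 2 lower. Of its other markers 4 of 5 body muscle, 4 of 5 epidermis and 4 of 7 germline were higher. Over all features 37.3% were called higher and 37.4% lower in mutants in this contrast, and 30.0% higher and 33.5% lower in wild type. In young animals at 20 °C summed intestine markers were 3505 to 3854 CPM in mutants and 2872 to 3656 CPM in wild type. All 8 intestine markers fell with age in each genotype, and 6 of 7 neuron markers rose in each. No marker in these lists was at 0 reads in all libraries of any group. The part of these shifts in the values of the 8 trehalose genes was not tested.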

How the data were processed

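Total RNA of whole animals had been made into libraries with a stranded mRNA kit, per the labels' protocols. Per the submitters' processing notes, the authors used bcl2fastq, HISAT2 2.2.1, featureCounts and DESeq2 1.31.16 with build ce10. Each of the 9 deposited tables holds, for 10 libraries, a signal per feature that the authors had made by dividing counts by size factors. The authors also deposited a log2 fold change and a p-value per feature, of which the log2 values served here only to check column names.

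Whole reads were recovered from the deposited values, all of which were whole within 0.01 reads, and 70 pairs of columns were identical between tables. In the table of old mutants at 25 and 20 °C, 10 columns had exchanged group names and were exchanged back. Robust limma-trend (R 4.3.3, limma 3.58.1) was run per table on log2(value + 1) for features that reached 10 in 5 or more libraries, with Benjamini-Hochberg adjustment and a threshold of 0.05. A fold on this scale understates changes of low genes. Intervals are the log2 fold change plus and minus 2 SE. Comparisons without a table of their own, and the interaction, used edgeR 4.0.16 (quasi-likelihood, TMM) on recovered reads, with SEs taken from the F statistic. Levels are CPM scaled by TMM over 40 libraries, or TPM from exonic lengths of the Ensembl WBcel235 annotation, which matched 38832 of 42048 features. That build differs from the authors', so no coordinates are given. Both tests were tried on simulated data with the same dispersion for all genes and few changed genes. That setting differs from these data, so the trial does not vouch for the p-values here. The genes and lists were chosen with earlier results of these data known. All 8 members are named in each comparison, at most 2 genes per list, and for each member the 2 genes with the highest Pearson r over 40 libraries. Figures used matplotlib 3.10.9.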

Additional observations from a re-analysis of the deposited data

Results flagged for a closer look

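In 3 of the 64 combinations of member and group, 1 library stood apart from the other 4, and chance alone gives about 1 in 20. tre-3 had 21.7 CPM in replicate 2 of old wild type at 15 °C, against 17.0 to 18.3 CPM in the others. tps-1 had 48.1 CPM in that same library, against 51.4 to 52.2 CPM in the others of the group. tre-5 had 12.02 CPM in replicate 5 of old mutants at 25 °C, against 15.3 to 16.6 CPM in the others, and its genotype difference at 25 °C ranged over 1.54 to 1.67 on the log2 scale when any 1 library was left out.

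The genotype difference in old animals at 25 °C departed from that in young adults at 20 °C by edgeR's interaction term for 7 genes. In log2 units the departures were 2.036 for tre-5, 0.2325 for tps-1, -0.5018 for tps-2, -0.5224 for gob-1, -0.3927 for tre-1, -0.1761 for tre-2 and -0.2453 for tre-3.

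Other genotype differences lay on opposite sides of 0, with no overlap between the genotypes in either condition in the deposited normalized counts. These departures were not tested. The difference for tre-5 at 15 °C minus that at 20 °C was -1.928, and that at 15 °C minus that at 25 °C was -2.204. Stated as temperature steps, the tre-5 difference of 15 over 20 °C in mutants minus that in wild type was -1.922, and that of 15 over 25 °C was -2.21. The tre-5 values for 15 and 20 °C restate the pattern by which it was singled out and are no support for it. Those for 15 and 25 °C use some of the same libraries. For tre-4 the genotype difference at 15 °C minus that at 20 °C was 0.7106. For tps-2 it was 0.4437 for 15 minus 25 °C and 0.4834 for 20 minus 25 °C. In CPM, however, tps-2 overlapped between genotypes at 20 °C, with a lowest mutant library of 32.5 CPM and a highest wild-type library of 32.8 CPM.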

How the results depend on the processing

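The count of called members stayed within 1.5 times its main value in every tested comparison under every alternative run (edgeR or limma with TMM, edgeR with RLE, DESeq2, no filter, pseudocount 0.1, library size as the only scaling, a replicate block and each library left out). Of 632 single values under alternatives that keep all libraries, 593 were unchanged, and of 1120 with 1 library left out, 1087 were. Unchanged meant the same direction and call, except for genotype in old animals at 15 and 20 °C. There it meant a shift below the residual SD of the fit, whatever the call. With library size as the only scaling these turned round, in log2 units: in young animals tre-2 (0.0707) and tps-1 (0.0499), genotype at 25 °C tre-3 (0.0248), mutants at 15 against 25 °C gob-1 (-0.1659), mutants at 25 against 20 °C tps-2 (0.1327), wild type at 25 against 20 °C gob-1 (0.0025), age in mutants tre-3 (0.0479) and tps-2 (0.2076), age in wild type tre-1 (0.0623), tre-3 (0.3456), tre-4 (0.3373), tps-2 (0.3181) and gob-1 (0.2756). That scaling moved the median of all features in the age comparison to 0.609 in mutants and 0.675 in wild type, and to 0.198 for genotype at 25 °C, and the share of called features that were higher from 52.9% to 78.1%, from 53.97% to 81.8% and from 48.1% to 69.7%. With the column names as deposited, mutants at 25 against 20 °C gave tps-1 -0.1580, tps-2 0.0838, gob-1 0.3220, tre-1 0.2182, tre-2 -0.0729, tre-3 0.3602, tre-4 -0.4986 and tre-5 0.4644, an alternative added after seeing the data. The interaction of tre-4 was -0.0081 with limma and -0.0325 without a filter. With 1 library left out, 4 values near 0 changed sign in their ranges: tre-4 in young animals (-0.0063 to 0.0859), gob-1 in mutants at 15 against 25 °C (-0.0170 to 0.0297), tre-1 in wild type at 25 against 20 °C (-0.0059 to 0.0412) and tre-4 in the interaction (-0.0282 to 0.0571). Replicate numbers did not pair the samples: in no comparison were all 5 same-numbered correlations over 0.1, and 0 to 2 of 5 samples correlated best with their own number. The replicate block changed 1 call, tps-1 in wild type at 15 against 20 °C (0.1222, limma adjusted p = 0.042), and the count there became 7. Counts of called members in this section include tre-5, as a description only. Depth limits tre-5 in young animals, with 16 to 44 reads per library. Other causes of these changes were not tested.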

Other observations

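The genes most like each member over the 40 libraries were found by Pearson's r of log2(CPM + 1) among 12744 genes, as a description, since all libraries share the steps of age and temperature. tre-5 was most like zig-3, which encodes a secreted immunoglobulin-domain protein (r = 0.968), and ins-23, which encodes an insulin-like peptide (r = 0.966). zig-3 averaged 21.1 CPM in old mutants and 12.6 CPM in old wild type at 20 °C, and 8.93 CPM in old mutants and 11.3 CPM in old wild type at 15 °C. ins-23 averaged 8.15 CPM in old mutants and 4.91 CPM in old wild type at 20 °C, and 4.23 CPM in old mutants and 5.06 CPM in old wild type at 15 °C.

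tps-1 was most like K09F6.9 (r = 0.987) and Y6E2A.4 (r = 0.982), and tps-2 most like myo-3, a myosin heavy chain of body wall muscle (r = 0.937), and F44E7.5 (r = 0.932). myo-3 averaged 28.7 CPM in old mutants and 43.2 CPM in old wild type at 25 °C, and 67.5 CPM in young mutants and 53.4 CPM in young wild type. gob-1 was most like B0286.3 (r = 0.976) and the cuticle collagen col-184 (r = 0.975), which averaged 13.8 CPM in old mutants and 107 CPM in old wild type at 25 °C.

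tre-1 was most like R10H10.3 (r = 0.986) and the short-chain dehydrogenase dhs-3 (r = 0.983), and tre-2 most like C01G10.10 and Y53C10A.5 (r = 0.990 for both). tre-3 (r = 0.921 with T07C12.12) and tre-4 (r = 0.929 with B0041.5) had less similar neighbours. Among the members themselves tre-1 and tre-2 were most alike (r = 0.943), and tre-5 and tps-1 had r = 0.874 with each other and -0.807 and -0.832 with tre-1.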
